A study of Rattus norvegicus with 30 samples.

Results

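Blood clotting and complement depend on plasma proteins that the liver makes and secretes, and 39 such genes were followed here in rat liver across 6 diets. They were chosen by name, as listed coagulation and complement factors, and each gene was read from its brightest probe set. Of the 39, 33 had a probe set of their own, and all 33 lay above the filter on dim signals: 16 coagulation or fibrinolysis genes and 17 complement genes. They were part of 10699 tested genes among the 14217 with a probe set of their own. *F7*, *F11* and *F13b* were not analysed here, nor were *Kng1*, *C2* and *Cfb*, whose probe sets the annotation shares with another gene.

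Livers came from 30 male Sprague-Dawley rats, received at 4 weeks of age, given 5 days to adapt and then fed 1 of 6 diets for 14 days with free access, 5 rats and 5 arrays per diet. The protein, 200 g/kg in every diet, was casein in C (the control) and CI, soy protein in S and SI, freeze-dried tofu in T20, and casein and freeze-dried tofu at 100 g/kg each in T10. CI and SI also held an isoflavone mixture set to the level in T20, so soy protein against casein can be read without it (S against C) and with it (SI against CI). Levels are log2 of the deposited 1-colour Affymetrix intensity, differences are log2 differences ± SE with 5 rats per diet, and adjusted p-values come from limma with Benjamini-Hochberg adjustment over 18625 probe sets.

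Coagulation is a chain of protease precursors. Contact factors such as plasma prekallikrein and factor XII start the intrinsic branch, the branches meet at factor X, thrombin cleaves fibrinogen to fibrin, and antithrombin, heparin cofactor II and the protein C and protein S pair hold the chain back, while plasmin dissolves the clot. Complement is a parallel chain in which C1q or mannose-binding lectins recognise a surface, proteases lead to cleavage of C3 and C5, and C6, C8 and C9 take part in building a membrane pore. Hepatocytes make most of these proteins, but C1q is made mainly by macrophages.

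Promoter sequence is shown for 6 members. They are *Klkb1*, *C8a* and *C5*, which were called lower in SI than in CI, and the 3 fibrinogen genes, which lie next to each other and passed in no comparison. *Pros1* was also called lower in SI than in CI, and its promoter is not shown. The *C5* call (limma adjusted p = 0.0473) was lost without any 1 of 16 arrays. Each run holds the 150 bases before the gene's start, 5′ to 3′ on the gene's strand, from RefSeq on the GRCr8 assembly. Their positions are chr16:53691076-53691225 (plus strand) for *Klkb1*, chr5:124866632-124866781 (minus) for *C8a*, chr3:38759469-38759618 (minus) for *C5*, chr2:170672019-170672168 (plus) for *Fga*, chr2:170700876-170701025 (minus) for *Fgb* and chr2:170652933-170653082 (plus) for *Fgg*. Capitals mark GTTAAT (or ATTAAC on the other strand), a core of sites for the hepatocyte factor HNF1, CTGGGAA, a core of interleukin-6 response elements, and TATAAA, the TATA box.
Klkb1: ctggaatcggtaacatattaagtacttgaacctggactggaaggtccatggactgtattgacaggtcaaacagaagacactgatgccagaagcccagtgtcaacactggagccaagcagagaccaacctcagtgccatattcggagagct
C8a: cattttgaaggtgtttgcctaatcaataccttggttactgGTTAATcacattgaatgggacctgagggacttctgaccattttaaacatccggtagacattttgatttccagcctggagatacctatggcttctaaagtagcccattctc
C5: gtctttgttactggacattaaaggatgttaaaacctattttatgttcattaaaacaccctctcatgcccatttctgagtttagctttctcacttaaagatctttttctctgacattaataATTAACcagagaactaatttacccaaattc
Fga: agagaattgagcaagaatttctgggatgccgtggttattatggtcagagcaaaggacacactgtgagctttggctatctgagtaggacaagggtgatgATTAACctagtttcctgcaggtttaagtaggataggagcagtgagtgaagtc
Fgb: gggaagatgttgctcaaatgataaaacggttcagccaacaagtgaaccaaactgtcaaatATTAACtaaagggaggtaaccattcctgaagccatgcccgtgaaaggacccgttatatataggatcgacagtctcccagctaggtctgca
Fgg: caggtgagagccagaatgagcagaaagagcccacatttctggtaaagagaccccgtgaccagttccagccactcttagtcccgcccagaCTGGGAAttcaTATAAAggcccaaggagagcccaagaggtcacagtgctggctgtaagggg
None of these letters occurs in the *Klkb1* run. The HNF1 core lies 110 to 105 bases before the start of *C8a*, 30 to 25 before *C5*, 52 to 47 before *Fga* and 90 to 85 before *Fgb*. The *Fgg* run holds CTGGGAA 61 to 55 bases and TATAAA 50 to 45 bases before its start.

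Promoters in the RefSeq table were matched by symbol for 31 of the 39 members, 27 of them tested, and were searched over 250 bases before the start. GTTAAT, on either strand, was present in 9 of 27 (33.3%), against 7.13% of all 27457 genes with a promoter entry. The 9 were *F2*, *Fga*, *Fgb*, *Plg*, *Proc*, *C5*, *C8a*, *C4bpa* and *C4bpb*. CTGGGAA, on either strand, was present in 7 of 27 (25.9%), against 10.2% of all, namely in *F9*, *Fgb*, *Fgg*, *Plg*, *Serpinc1*, *C3* and *C4bpb*. CAAAGTNCA, a core of HNF4 sites on either strand, was present only in *F9* (1.18% of all genes), TATAAA on the gene's strand only in *Fgg* (8.93% of all), and TTGCGCAA, a palindrome bound by C/EBP factors, in 0 of 27 (0.168% of all). No match in a member overlapped a match to another of the 5 motifs. Matches are descriptions of the sequence and were not related to the diet differences.

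Array medians lay between intensities of 216.9 and 254.7, and no member had an intensity of 0 on any array. Members were bright: 18 were among the brightest 1% of probe sets and 30 among the brightest 5%. The brightest member had a mean log2 of 16.08, and the highest intensity of any probe set was 129458.5. Whether differences are compressed at such levels was not tested. T10 replicates 3, 4 and 5 had a ratio of the 3′ to the 5′ GAPDH control probe sets of 1.32 to 1.58, against 0.970 to 1.25 on the other 27 arrays. C replicate 3 and CI replicate 3 carry identical normalization parameters in the labels, although their values differ. All 10 measured markers of hepatocytes, among them albumin (*Alb*), transthyretin (*Ttr*) and apolipoprotein A1 (*Apoa1*), passed the filter and were tested. The number of arrays limits the precision.

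Most of the 33 members passed no test. The 9 pairwise calls were 5 in SI against CI, 3 in T20 against SI and 1 in S against C. Over the 6 diets 7 of 33 members (21.2%) differed by the moderated F test, beside 12.9% of all tested probe sets: *Klkb1*, *Proc*, *Pros1*, *F5*, *C8a*, *Serpind1* and *Serpinf2*. Of these, 6 were among the 16 coagulation genes and 1, *C8a*, among the 17 complement genes. That split depends on the threshold: at an unadjusted F test p under 0.05 there were 7 of the 16 and 9 of the 17. The share of all tested probe sets at that unadjusted p is not given. Complement genes just short of the adjusted threshold were *Mbl1* (0.0576), *C8b* (0.0631) and *C6* (0.0662). *F5* and *Serpinf2* passed this test without a pairwise call, and *C5* had a pairwise call without passing it. The map of differences shows where the pairwise calls fell.

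**Figure D1:**
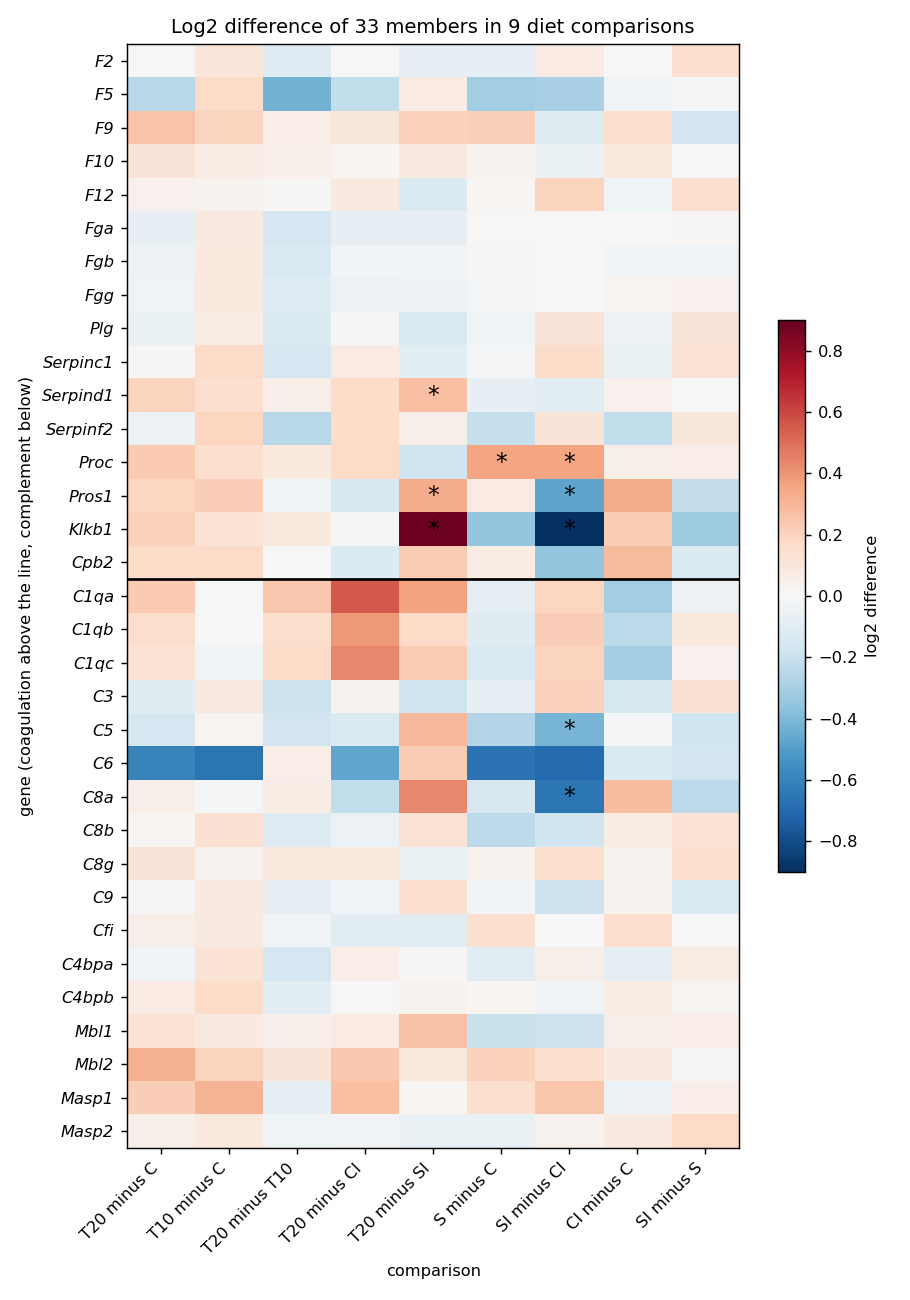
Log2 difference of each of the 33 members (rows, coagulation above the line and complement under it) in 9 diet comparisons (columns), red for higher and blue for lower in the diet named first, with an asterisk where the adjusted p from limma was under 0.05. The 9 asterisks lie in 3 columns, 5 in SI minus CI, 3 in T20 minus SI and 1 in S minus C.

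In SI against CI, that is soy protein against casein with isoflavones in both, 1 member rose and 4 fell. *Proc*, the precursor of activated protein C, rose, and *Klkb1*, *C8a*, *Pros1* and *C5* fell, by factors of 1.34 to 1.87. These 5 are 15.2% of the 33, near the 11.6% of all tested probe sets (5.5% higher and 6.14% lower). The levels of the SI and CI livers did not overlap for 5 members, namely *F5*, *Proc*, *Pros1*, *Klkb1* and *C8a*, beside 10.1% of all tested probe sets. The median difference was 0.001 over the members and -0.02 over all tested probe sets.

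In S against C, the same change of protein without added isoflavones, *Proc* rose and no other member passed. That is 3.03% of the members, beside 7.25% of all tested probe sets (2.99% higher and 4.27% lower). The members *F5*, *Proc* and *C8b* had S and C livers that did not overlap, beside 7.5% of all tested probe sets. When SI replicate 3 or T20 replicate 5 was left out, *F5* passed as well, making 2 members.

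In T20 against SI, tofu against soy protein with isoflavones set to the same level, *Klkb1*, *Pros1* and *Serpind1* rose and none fell. These 3 are 9.09% of the members, beside 3.51% of all tested probe sets (1.63% higher and 1.87% lower), and 10 reached an unadjusted p under 0.05, beside 18.8% of all. The levels did not overlap for *Serpind1* and *Klkb1*, beside 4.05% of all tested probe sets. SI is in this comparison and in SI against CI, so the opposite signs of *Klkb1* and *Pros1* in these comparisons share the same SI livers. Leaving out SI replicate 2, 4 or 5 or T20 replicate 1 or 2 left *Klkb1* as 1 member called.

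In T20 against C, tofu against casein, limma called 0 of 33 members, beside 4.5% of all tested probe sets (1.76% higher and 2.74% lower). At an unadjusted p under 0.05 there were 6, beside 20.4% of all. The lowest adjusted p-values belonged to *Mbl2*, a mannose-binding lectin, with a difference of 0.32 ± 0.10 (adjusted p = 0.0602), and to *Proc*, with 0.24 ± 0.08 (adjusted p = 0.0685). Of these, *Proc* had T20 levels that were all above those in C, and it was the only such member in either direction, beside 4.99% of all tested probe sets. Leaving out C replicate 1 or S replicate 1 brought 1 member past the threshold, and leaving out T20 replicate 5 brought 2, *F5* and *Mbl2*.

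In T20 against CI, tofu against casein with matched isoflavones, 0 members passed in limma, beside 2.12% of all tested probe sets (1.08% higher and 1.04% lower). At an unadjusted p under 0.05 there were 6, beside 16.1% of all, and the 3 C1q chains had the lowest p-values. No member had T20 and CI livers that did not overlap, beside 3.72% of all tested probe sets. Leaving out CI replicate 2, T10 replicate 1 or T20 replicate 4 brought *C1qa* and *C1qb* past the threshold.

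In T10 against C, with tofu for only a portion of the casein, limma called 0 members, beside 0.322% of all tested probe sets, and 4 reached an unadjusted p under 0.05, beside 9.91% of all. The differences were small and mostly positive: 29 of 33 were above 0, with a median of 0.09 beside -0.03 for all tested probe sets, of which 43.1% were above 0. All 16 coagulation genes were above 0, with a median of 0.13. Hepatocyte markers were above 0 in 9 of 10 cases, with a median of 0.11, and other pathway genes in 25 of 38, with a median of 0.07. With T10 replicates 1 and 2 alone the coagulation count was 16 of 16 and with T10 replicates 3, 4 and 5 alone 14 of 16. After quantile normalization of the arrays it was 10 of 16 (median 0.06), beside 51.3% of all tested probe sets. Median centring gave 16 of 16 (median 0.15), beside 46.8% of all. An equal median and spread gave 16 of 16 (median 0.29), beside 55.3% of all. The count thus depends on the scaling.

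Tofu as the whole against a portion of the protein (T20 against T10) gave 0 members and 0% of all tested probe sets, with 5 members at an unadjusted p under 0.05 beside 7.08% of all. No member had T20 and T10 livers that did not overlap, beside 1.08% of all tested probe sets. Added isoflavones alone gave 0 members and 0% of all tested probe sets on casein (CI against C) and on soy protein (SI against S). The members at an unadjusted p under 0.05 numbered 5 in CI against C, beside 8.62% of all, and 3 in SI against S, beside 3.57% of all. No member's livers failed to overlap in CI against C, beside 1.73% of all tested probe sets, or in SI against S, beside 0.489%. The test of whether the isoflavone difference depended on the protein, that is (SI minus S) minus (CI minus C), called 0 members, beside 0.0161% of all tested probe sets, and 6 had an unadjusted p under 0.05, beside 9.21% of all. Its lowest member p-values belonged to *Pros1*, with -0.55 ± 0.13 (adjusted p = 0.364), *C8a*, with -0.51 ± 0.18 (0.477), and *Klkb1*, with -0.55 ± 0.22 (0.487).

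The members that passed are shown liver by liver in the plots of log2 intensity by diet.

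**Figure D2:**
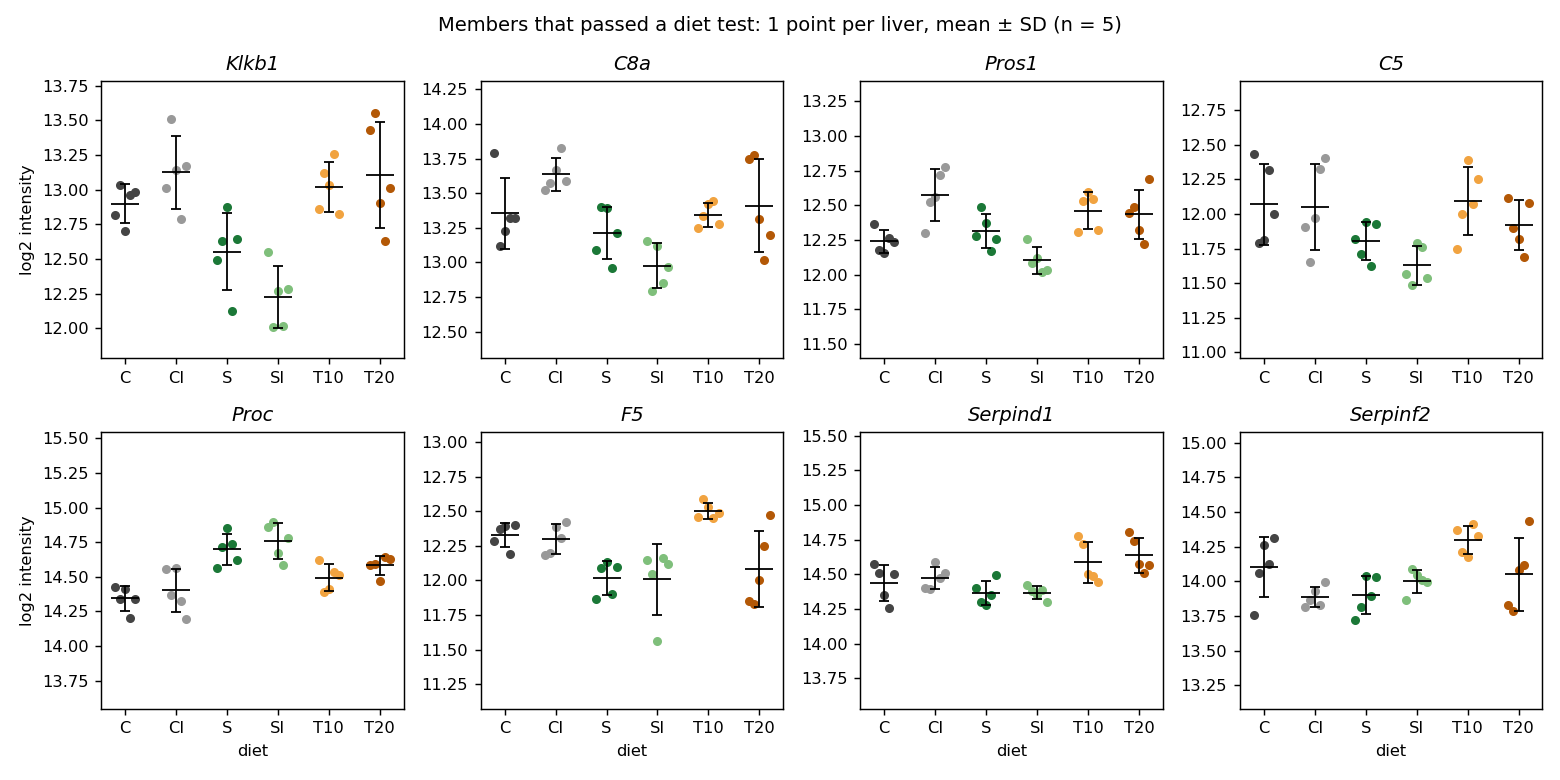
Log2 intensity (vertical axes, each spanning 2 log2 units) of the 8 members that passed a pairwise comparison or the F test, by diet, with 1 point per liver, a horizontal line at the mean and bars of 1 SD (n = 5). *Klkb1* has its lowest mean in SI, where livers lie at 12.01 to 12.55, and *Proc* its highest means in S and SI, where livers lie at 14.57 to 14.90.

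Among the contact and intrinsic factors, *Klkb1*, which encodes plasma prekallikrein, the protease that activates factor XII and releases bradykinin from kininogen, had the largest difference of any member. *Klkb1* had log2 levels of 12.82, 13.04, 12.70, 12.96 and 12.99 in the C livers and 13.01, 13.51, 13.14, 12.79 and 13.17 in the CI livers. *Klkb1* levels were 12.49, 12.63, 12.88, 12.12 and 12.64 in S and 12.55, 12.01, 12.27, 12.02 and 12.28 in SI. In T10 *Klkb1* had 12.86, 13.12, 13.03, 13.26 and 12.83, and in T20 it had 13.43, 13.56, 12.90, 12.63 and 13.01. Every SI liver was below every CI liver and below every T20 liver. The S livers spread from within the SI range, where 2 of them lay, to 1 liver as high as some of the casein group. From CI to SI *Klkb1* fell by 0.90 ± 0.16 on the log2 scale, a 1.87-fold difference (adjusted p = 0.000414). From SI to T20 it rose by 0.88 ± 0.16, or 1.84-fold (adjusted p = 0.00207). S against C gave -0.35 ± 0.16 (adjusted p = 0.182), and SI against S -0.32 ± 0.16 (adjusted p = 0.999). Neither of the *Klkb1* calls was lost when any single array was left out, but with only the SI and T20 arrays in the fit the adjusted p of the second was 0.061.

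*F12*, the contact factor that prekallikrein activates, did not pass: its diet means ran from 14.61 in CI to 14.82 in SI, with an SI against CI difference of 0.20 ± 0.08 (adjusted p = 0.0848). *F9*, the vitamin K-dependent protease missing in haemophilia B, had diet means of 13.66 in C to 13.92 in T20 (F test adjusted p = 0.611). *F10*, the protease at which the branches meet, varied least of all members, with diet means of 14.19 to 14.30 (F test adjusted p = 0.8).

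*F5* encodes the cofactor that speeds the cleavage of prothrombin by activated factor X. *F5* had log2 levels of 12.28, 12.37, 12.39, 12.19 and 12.40 in the C livers and 12.19, 12.20, 12.39, 12.31 and 12.42 in the CI livers. *F5* levels were 11.87, 12.09, 12.14, 11.90 and 12.10 in S and 12.15, 12.04, 11.56, 12.17 and 12.12 in SI. In T10 *F5* had 12.46, 12.59, 12.53, 12.45 and 12.49, and in T20 it had 11.85, 11.83, 12.002, 12.25 and 12.47. All T10 livers were above all C livers, all S livers were below all C livers and all SI livers were below all CI livers. The T20 livers spread from 11.83 to 12.47. The F test over the diets passed (adjusted p = 0.00562), and no pairwise comparison did. *F5* gave -0.31 ± 0.11 for S against C (adjusted p = 0.0799), -0.29 ± 0.11 for SI against CI (0.076), and -0.42 ± 0.11 for T20 against T10 (0.353). Every T10 *F5* level being above every C level is shared by 1.94% of all tested probe sets in that comparison, taking either direction.

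*F2* encodes prothrombin, the precursor of thrombin. *F2* had log2 levels of 15.49, 15.38, 15.41, 15.28 and 15.45 in the C livers and 15.39, 15.35, 15.51, 15.33 and 15.39 in the CI livers. *F2* levels were 15.20, 15.31, 15.43, 15.30 and 15.36 in S and 15.51, 15.64, 15.32, 15.31 and 15.58 in SI. In T10 *F2* had 15.65, 15.44, 15.45, 15.57 and 15.45, and in T20 it had 15.46, 15.33, 15.32, 15.34 and 15.55. Every T10 liver was above every S liver, and the other diets overlapped, with the T10 and SI means highest. *F2* did not pass the F test (adjusted p = 0.305), and its diet means spanned 0.19 on the log2 scale.

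Fibrinogen, the substrate of thrombin, is built of 3 chains, and none of them passed in any comparison. The chain Aα is encoded by *Fga*. *Fga* had log2 levels of 15.93, 15.60, 15.60, 15.57 and 15.84 in the C livers and 15.83, 15.63, 15.74, 15.63 and 15.72 in the CI livers. *Fga* levels were 15.64, 15.75, 15.83, 15.59 and 15.70 in S and 15.77, 15.85, 15.68, 15.53 and 15.71 in SI. In T10 *Fga* had 15.89, 15.88, 15.78, 15.81 and 15.58, and in T20 it had 15.82, 15.78, 15.50, 15.60 and 15.49. Livers of each diet covered much the same range. The chain Bβ is encoded by *Fgb*. *Fgb* had log2 levels of 15.53, 15.13, 15.26, 15.18 and 15.51 in the C livers and 15.38, 15.17, 15.39, 15.31 and 15.25 in the CI livers. *Fgb* levels were 15.07, 15.29, 15.54, 15.43 and 15.32 in S and 15.32, 15.40, 15.33, 15.14 and 15.31 in SI. In T10 *Fgb* had 15.49, 15.41, 15.38, 15.49 and 15.29, and in T20 it had 15.35, 15.40, 15.22, 15.23 and 15.20. Again the ranges overlapped between all diets. The γ chain is encoded by *Fgg*. *Fgg* had log2 levels of 16.02, 15.70, 15.71, 15.66 and 15.95 in the C livers and 15.91, 15.83, 15.94, 15.70 and 15.78 in the CI livers. *Fgg* levels were 15.77, 15.80, 15.87, 15.72 and 15.79 in S and 15.83, 15.92, 15.81, 15.73 and 15.84 in SI. In T10 *Fgg* had 16.01, 15.94, 15.89, 15.94 and 15.70, and in T20 it had 15.92, 15.93, 15.64, 15.76 and 15.66. The F tests gave adjusted p-values of 0.773 for *Fga*, 0.792 for *Fgb* and 0.803 for *Fgg*. Over the 9 comparisons the differences of the 3 chains lay between -0.15 and 0.09, and their 95% intervals between -0.32 and 0.26. *Fga* has a second, dimmer tested probe set, which did not pass the F test (adjusted p = 0.0944). It gave -0.30 for T20 against C, -0.33 for S against C and -0.28 for SI against CI. The brightest *Fga* probe set gave -0.07, -0.006 and 0.001 in these comparisons.

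**Figure D3:**
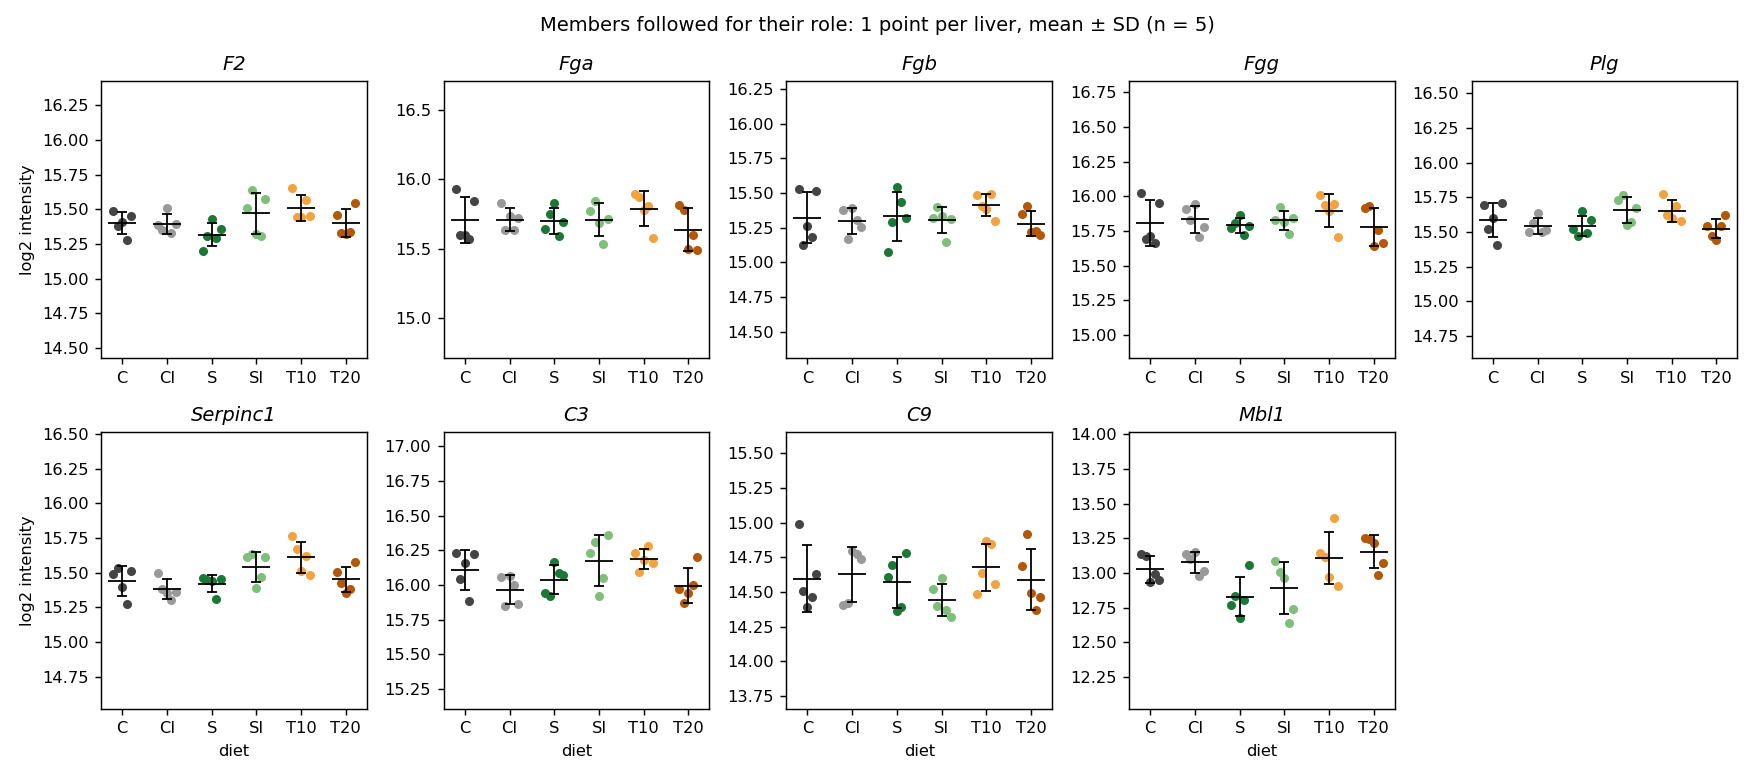
Log2 intensity (vertical axes, each spanning 2 log2 units) of 9 members followed for their role, by diet, with 1 point per liver, a horizontal line at the mean and bars of 1 SD (n = 5). None of the 9 passed a comparison, and the F test adjusted p-values ran from 0.0576 for *Mbl1* to 0.803 for *Fgg*.

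Of the inhibitors of coagulation, *Proc* and *Pros1*, whose products work together to inactivate factors V and VIII, moved in opposite directions from CI to SI. *Proc* encodes the protease protein C. *Proc* had log2 levels of 14.43, 14.34, 14.41, 14.20 and 14.34 in the C livers and 14.56, 14.37, 14.56, 14.33 and 14.20 in the CI livers. *Proc* levels were 14.57, 14.71, 14.85, 14.74 and 14.62 in S and 14.86, 14.90, 14.67, 14.59 and 14.78 in SI. In T10 *Proc* had 14.62, 14.39, 14.42, 14.54 and 14.52, and in T20 it had 14.58, 14.60, 14.47, 14.64 and 14.62. All S livers were above all C livers, and all SI livers were above all CI livers, and T20 was above C throughout. *Proc* rose by 0.35 ± 0.08 from C to S (1.28-fold, adjusted p = 0.0038) and by 0.36 ± 0.08 from CI to SI (1.28-fold, adjusted p = 0.00299). No single array left out ended either call, but giving all arrays an equal median and spread ended the SI against CI call (adjusted p = 0.269).

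*Pros1* encodes protein S, the cofactor of activated protein C. *Pros1* had log2 levels of 12.37, 12.18, 12.16, 12.26 and 12.24 in the C livers and 12.30, 12.53, 12.56, 12.72 and 12.78 in the CI livers. *Pros1* levels were 12.28, 12.49, 12.37, 12.17 and 12.26 in S and 12.26, 12.09, 12.12, 12.02 and 12.03 in SI. In T10 *Pros1* had 12.31, 12.53, 12.60, 12.55 and 12.32, and in T20 it had 12.45, 12.49, 12.32, 12.22 and 12.69. The highest *Pros1* means were in CI, T10 and T20, and the SI livers were all below the CI livers. From CI to SI *Pros1* fell by 0.47 ± 0.09 (1.39-fold, adjusted p = 0.00113), and from SI to T20 it rose by 0.33 ± 0.09 (1.26-fold, adjusted p = 0.0383). S against C differed by less than the spread between livers, with means of 12.31 and 12.24. The T20 against SI call was lost without SI replicates 2, 4 or 5 or T20 replicates 1, 2 or 5, with adjusted p-values up to 0.0927, and after quantile normalization (0.0761) or median centring (0.106). No single array left out ended the SI against CI call.

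*Serpind1* encodes heparin cofactor II, a thrombin inhibitor. *Serpind1* had log2 levels of 14.57, 14.51, 14.35, 14.25 and 14.50 in the C livers and 14.40, 14.39, 14.59, 14.48 and 14.51 in the CI livers. *Serpind1* levels were 14.40, 14.30, 14.28, 14.35 and 14.49 in S and 14.42, 14.38, 14.35, 14.39 and 14.30 in SI. In T10 *Serpind1* had 14.77, 14.72, 14.50, 14.49 and 14.44, and in T20 it had 14.80, 14.74, 14.57, 14.51 and 14.57. The 5 T20 livers were all above the 5 SI livers, and T10 lay nearly as high as T20. From SI to T20 *Serpind1* rose by 0.27 ± 0.07 (1.21-fold, adjusted p = 0.041), and the F test gave an adjusted p of 0.0342. The T20 against SI call was lost without SI replicates 1, 2, 3, 4 or 5 or T20 replicates 1, 2 or 3, with adjusted p-values up to 0.127, and under median centring (0.162) or an equal median and spread (0.0675). The F test call was lost without S replicates 2, 3 or 4, SI replicates 2 or 5, T10 replicate 2 or T20 replicates 1 or 2, with adjusted p-values up to 0.0767, and under median centring (0.098).

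*Serpinc1* encodes antithrombin, the main inhibitor of thrombin and activated factor X. *Serpinc1* had log2 levels of 15.49, 15.53, 15.40, 15.27 and 15.51 in the C livers and 15.50, 15.39, 15.35, 15.31 and 15.36 in the CI livers. *Serpinc1* levels were 15.46, 15.45, 15.44, 15.31 and 15.46 in S and 15.61, 15.64, 15.39, 15.47 and 15.61 in SI. In T10 *Serpinc1* had 15.76, 15.67, 15.52, 15.62 and 15.49, and in T20 it had 15.51, 15.43, 15.36, 15.38 and 15.58. T10 had the highest mean, and the ranges of T10 and C overlapped. T10 against C gave 0.17 ± 0.07 (adjusted p = 0.378), and the F test did not pass (adjusted p = 0.1).

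In fibrinolysis, *Serpinf2*, which encodes α2-antiplasmin, the inhibitor of plasmin, differed over the diets but in none of the 9 comparisons. *Serpinf2* had log2 levels of 13.76, 14.06, 14.26, 14.13 and 14.32 in the C livers and 13.82, 13.86, 13.93, 13.83 and 13.996 in the CI livers. *Serpinf2* levels were 13.72, 13.82, 14.04, 13.89 and 14.04 in S and 13.87, 14.09, 14.04, 14.01 and 13.995 in SI. In T10 *Serpinf2* had 14.37, 14.21, 14.17, 14.41 and 14.33, and in T20 it had 13.83, 13.79, 14.08, 14.12 and 14.44. The T10 mean was highest and the CI mean lowest, and C and T20 spread widely. The F test gave an adjusted p of 0.0388. It was lost without CI replicates 1, 2 or 4, S replicates 1, 2 or 4, SI replicate 5 or T10 replicates 1, 2, 4 or 5, with adjusted p-values up to 0.096, and without T10 replicates 3, 4 and 5, the arrays with the high GAPDH ratio (0.205), and after quantile normalization (0.104) or with an equal median and spread (0.0793).

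*Plg* encodes plasminogen, the precursor of plasmin. *Plg* had log2 levels of 15.69, 15.52, 15.60, 15.41 and 15.71 in the C livers and 15.50, 15.57, 15.63, 15.50 and 15.51 in the CI livers. *Plg* levels were 15.52, 15.47, 15.65, 15.49 and 15.58 in S and 15.73, 15.77, 15.55, 15.57 and 15.67 in SI. In T10 *Plg* had 15.77, 15.62, 15.60, 15.69 and 15.58, and in T20 it had 15.54, 15.47, 15.44, 15.54 and 15.62. The ranges of all diets overlapped, and the F test did not pass (adjusted p = 0.351). *Cpb2*, which encodes a carboxypeptidase that protects fibrin from plasmin, had diet means of 14.05 in SI to 14.40 in CI (F test adjusted p = 0.454).

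In complement, the members that passed encode late components. *C8a* encodes the α chain of C8, which inserts into the target membrane. *C8a* had log2 levels of 13.79, 13.12, 13.23, 13.32 and 13.32 in the C livers and 13.52, 13.57, 13.67, 13.82 and 13.59 in the CI livers. *C8a* levels were 13.09, 13.40, 13.39, 12.96 and 13.21 in S and 13.16, 12.80, 13.12, 12.85 and 12.97 in SI. In T10 *C8a* had 13.25, 13.33, 13.42, 13.44 and 13.27, and in T20 it had 13.75, 13.77, 13.32, 13.02 and 13.20. Every SI liver was below every CI liver, and 2 T20 livers were as high as CI while 3 were lower. From CI to SI *C8a* fell by 0.66 ± 0.13 (1.58-fold, adjusted p = 0.00143), and no single array left out ended this call. T20 against SI gave 0.43 ± 0.13 (adjusted p = 0.057), and the F test gave an adjusted p of 0.0134, or 0.0511 under median centring.

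*C5* encodes the protein whose cleavage starts the membrane attack pathway. *C5* had log2 levels of 12.43, 11.79, 11.81, 12.31 and 11.999 in the C livers and 11.90, 11.65, 11.97, 12.32 and 12.40 in the CI livers. *C5* levels were 11.82, 11.71, 11.94, 11.62 and 11.93 in S and 11.57, 11.49, 11.79, 11.76 and 11.54 in SI. In T10 *C5* had 11.75, 12.001, 12.39, 12.07 and 12.25, and in T20 it had 12.12, 11.90, 11.82, 11.69 and 12.08. The SI mean was lowest, and 1 CI liver lay among the SI livers. From CI to SI *C5* fell by 0.42 ± 0.14 (1.34-fold, adjusted p = 0.0473), just under the threshold, and its F test did not pass (adjusted p = 0.0857). The call was lost without any 1 of 16 arrays, namely C replicate 5, CI replicates 3, 4 or 5, S replicates 1, 2, 4 or 5, SI replicates 1, 2, 4 or 5, T10 replicates 2 or 4 or T20 replicates 2 or 3, with adjusted p-values up to 0.148, and without C replicate 3 and CI replicate 3 together (0.0596) or under median centring (0.121).

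*C6*, which joins C5b to begin the pore, had the widest spread of the complement members and did not pass. Its diet means were 12.30 ± 0.54 (SD, n = 5) in C and 12.17 ± 0.37 in CI, against 11.47 ± 0.39 in SI and 11.63 to 11.70 in S, T10 and T20. SI against CI gave -0.70 ± 0.24 (adjusted p = 0.059), S against C -0.67 ± 0.24 (0.0959) and T10 against C -0.66 ± 0.24 (0.339).

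The other chains of C8 did not share the difference of *C8a* from CI to SI past the threshold. Their CI and SI means were 14.23 and 14.05 for *C8b* and 14.72 and 14.86 for *C8g*. *C8b* had S livers all below C livers, with -0.23 ± 0.10 (adjusted p = 0.147), and *C8g*, which encodes the lipocalin-like γ chain, had diet means of 14.69 to 14.86. *C9* encodes the subunit that polymerises into the pore. *C9* had log2 levels of 14.99, 14.51, 14.39, 14.46 and 14.63 in the C livers and 14.41, 14.42, 14.79, 14.78 and 14.73 in the CI livers. *C9* levels were 14.61, 14.70, 14.37, 14.39 and 14.78 in S and 14.52, 14.40, 14.60, 14.37 and 14.32 in SI. In T10 *C9* had 14.48, 14.64, 14.86, 14.84 and 14.56, and in T20 it had 14.69, 14.92, 14.49, 14.37 and 14.47. The diets overlapped throughout, and the *C9* F test gave an adjusted p of 0.656.

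*C3* encodes the central component on which all complement branches act. *C3* had log2 levels of 16.23, 16.05, 16.16, 15.88 and 16.22 in the C livers and 16.05, 15.85, 16.06, 16.001 and 15.86 in the CI livers. *C3* levels were 15.94, 15.92, 16.17, 16.09 and 16.07 in S and 16.23, 16.31, 15.92, 16.05 and 16.36 in SI. In T10 *C3* had 16.23, 16.09, 16.18, 16.28 and 16.16, and in T20 it had 15.97, 15.87, 15.94, 16.002 and 16.20. All CI livers were below all T10 livers, and the other diets overlapped. *C3* did not pass in SI against CI (0.21 ± 0.08, adjusted p = 0.0998) or over the diets (adjusted p = 0.185).

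Of the lectin branch, *Mbl1* encodes a mannose-binding lectin that recognises microbial sugars. *Mbl1* had log2 levels of 13.14, 13.12, 12.93, 12.99 and 12.95 in the C livers and 13.14, 13.10, 13.15, 12.98 and 13.02 in the CI livers. *Mbl1* levels were 12.77, 12.84, 12.67, 12.80 and 13.05 in S and 13.08, 13.01, 12.96, 12.64 and 12.74 in SI. In T10 *Mbl1* had 13.14, 13.12, 12.97, 13.40 and 12.91, and in T20 it had 13.25, 13.25, 13.22, 12.98 and 13.07. S and SI held the lowest levels, and they overlapped with the other diets. *Mbl1* fell short of the threshold over the diets (adjusted p = 0.0576), and T20 against SI gave 0.26 ± 0.09 (adjusted p = 0.101). *Mbl2* had diet means of 14.29 in C to 14.61 in T20, and its second probe set had the same sign in all 9 comparisons. *Masp1*, a protease bound to these lectins, gave 0.31 ± 0.14 for T10 against C (adjusted p = 0.44), and *Masp2*, the protease that cleaves C4 and C2, had diet means of 12.96 to 13.13. Other probe sets of *Masp1* and *Masp2* differed from the brightest in sign in some comparisons.

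The 3 soluble regulators among the members, *Cfi*, *C4bpa* and *C4bpb*, passed no test. *Cfi*, the protease that inactivates C3b and C4b, had diet means of 14.67 to 14.82. *C4bpa* and *C4bpb*, the chains of its cofactor C4b-binding protein, had diet means of 14.78 to 14.997 and 13.90 to 14.07, and their F tests did not pass (adjusted p = 0.127 and 0.643).

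*C1qa* encodes the A chain of C1q, which binds antibody and starts the classical branch. *C1qa* had log2 levels of 12.60, 12.56, 12.57, 12.60 and 12.35 in the C livers and 12.26, 12.51, 12.18, 11.83 and 12.33 in the CI livers. *C1qa* levels were 12.83, 12.38, 12.74, 12.13 and 12.19 in S and 12.43, 12.21, 12.74, 12.11 and 12.56 in SI. In T10 *C1qa* had 12.97, 12.37, 12.59, 12.37 and 12.36, and in T20 it had 13.004, 13.04, 12.64, 12.31 and 12.86. CI held the lowest *C1qa* levels and T20 the highest, with overlap between them. T20 against CI gave 0.55 ± 0.16 for *C1qa* (adjusted p = 0.0602), 0.39 ± 0.11 for *C1qb* (0.0577) and 0.43 ± 0.13 for *C1qc* (0.0807), and CI against C gave -0.31 ± 0.16 for *C1qa* (0.58) and -0.30 ± 0.13 for *C1qc* (0.528). None of these passed, and in bulk liver fewer cells of a type and less RNA per cell cannot be told apart.

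**Figure D4:**
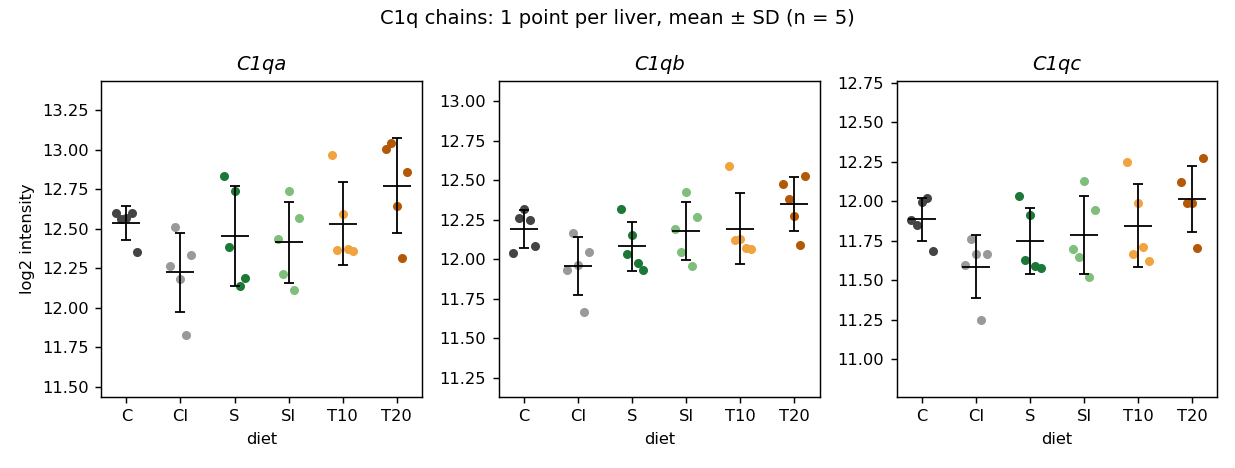
Log2 intensity (vertical axes, each spanning 2 log2 units) of the 3 C1q chains by diet, with 1 point per liver, a horizontal line at the mean and bars of 1 SD (n = 5). The T20 mean is highest and the CI mean lowest for each chain, 12.77 against 12.22 for *C1qa*, and the livers overlap.

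Markers of Kupffer cells and other macrophages, the cells that make C1q, were summed beside it. Intensities of the 11 measured of 14 listed markers were added, so the brightest markers weigh most. The log2 of this sum had a median of 14.87 in T20 (14.71 to 15.12), 14.83 in T10 (14.64 to 15.11), 14.78 in C (14.67 to 14.80) and 14.54 in CI (14.23 to 14.70). It was 14.62 in S (14.46 to 14.87) and 14.59 in SI (14.30 to 14.93). All T20 livers lay above all CI livers in this sum. In T20 against CI all 11 macrophage markers were above 0 (median 0.28), but so were all 9 tested endothelium markers (median 0.19). Hepatocyte markers were above 0 in 6 of 10 cases there (median 0.05). Of the macrophage markers, *Cd14*, a receptor for bacterial lipopolysaccharide, passed. It rose by 0.84 ± 0.21 from CI to T20 (adjusted p = 0.0283), a call lost without any 1 of 7 arrays. *Cd14* rose by 1.21 ± 0.21 in T10 against C (adjusted p = 0.00367), where no C1q chain passed, and that call was lost without T10 replicates 3, 4 and 5 (adjusted p = 0.183) but with no single array left out. It also rose by 0.73 ± 0.21 in T20 against C (adjusted p = 0.0404) and by 0.76 ± 0.21 in T20 against SI (adjusted p = 0.0385), calls lost without any 1 of 7 and of 6 arrays. The part of macrophages in the C1q levels was not tested.

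The log2 of the summed intensities of the hepatocyte markers had medians of 19.01 in CI, 19.10 in C, 19.11 in T20, 19.13 in S, 19.18 in T10 and 19.32 in SI. From CI to SI, where *Klkb1*, *Pros1*, *C8a* and *C5* fell, *Apoa2* rose by 0.39 ± 0.11 (adjusted p = 0.0191) and *Serpina1* by 0.24 ± 0.06 (adjusted p = 0.0157), and no hepatocyte marker fell past the threshold. Both calls were lost when arrays were given an equal median and spread (adjusted p = 0.474 and 0.888). Among the other lists, the pericyte gene *Rgs5* rose in T20 against C, by 0.76 ± 0.13 (adjusted p = 0.00103), and against CI and SI too, *Lyve1* of endothelium rose in T20 against C, by 0.35 ± 0.10 (adjusted p = 0.0404), and *Acta2* of smooth muscle and stellate cells rose in SI against CI, by 0.33 ± 0.11 (adjusted p = 0.0442). In T20 against C 5 of the 9 tested stellate cell or pericyte markers were above 0 (median 0.05, lowest -0.42). In the same comparison 6 of 9 endothelium markers were above 0 (median 0.05, lowest -0.17). Of the stellate cell or pericyte markers, 6 of 9 were above 0 in SI against CI (median 0.12, lowest -0.43). In T20 against CI and against SI, 6 and 5 of these 9 were above 0. The *Lyve1* call was lost without any 1 of 7 arrays and the *Acta2* call without any 1 of 8. With the mean of its probe sets the *Lyve1* call was lost too (adjusted p = 0.163). No marker of blood, platelets, lymphocytes or bile duct passed in a pairwise comparison.

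Other genes of the pathways, 65 listed of which 38 were tested, held receptors, cell-surface regulators and the enzymes that process clotting factors. In SI against CI 3 rose and 2 fell, 13.2% of the 38 beside 11.6% of all tested probe sets. *Ggcx*, the carboxylase that adds the vitamin K-dependent modification to protein C, protein S and prothrombin, rose by 0.39 ± 0.10 (adjusted p = 0.0149). *Serpina10*, the protein Z-dependent inhibitor of activated factor X, rose by 0.42 ± 0.09 (adjusted p = 0.00326), and *Clu*, clusterin, a soluble inhibitor of the complement pore, by 0.52 ± 0.10 (adjusted p = 0.000768). *Cd59b*, a membrane inhibitor of that pore, fell by 0.82 ± 0.14 (adjusted p = 0.000437). *Vkorc1*, the vitamin K epoxide reductase, fell by 0.25 ± 0.08 (adjusted p = 0.048), a call that was lost when any 1 of 21 arrays was left out. With an equal median and spread the *Serpina10* and *Clu* calls were lost (adjusted p = 0.191 and 0.106). The *Clu* call was also lost when the mean of the gene's probe sets replaced the brightest one (adjusted p = 0.132).

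In S against C 3 of the 38 rose and 1 fell, 10.5% beside 7.25% of all tested probe sets. *Tfpi*, the inhibitor of the tissue factor pathway, rose by 0.63 ± 0.14 (adjusted p = 0.00396), *Serpina10* by 0.37 ± 0.09 (adjusted p = 0.0102) and *Clu* by 0.34 ± 0.10 (adjusted p = 0.0253). *Vkorc1* fell by 0.28 ± 0.08 (adjusted p = 0.0396). The *Clu* call was lost without any 1 of 4 arrays and the *Vkorc1* call without any 1 of 9, with adjusted p-values up to 0.0999. With an equal median and spread the calls of *Serpina10* (0.0644), *Clu* (0.0718) and *Vkorc1* (0.627) were lost, and with the mean of its probe sets that of *Clu* (0.198).

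In T20 against SI 3 of the 38 rose and 2 fell, 13.2% beside 3.51% of all tested probe sets. *C1s*, the protease of the C1 complex, rose by 0.42 ± 0.10 (adjusted p = 0.0213), *Cd59b* by 0.53 ± 0.14 (adjusted p = 0.0332) and *Fcna*, ficolin A, by 0.51 ± 0.15 (adjusted p = 0.0488). *Ggcx* fell by 0.40 ± 0.10 (adjusted p = 0.0274) and *Cd46*, a membrane cofactor of factor I, by 0.74 ± 0.21 (adjusted p = 0.0456), its T20 mean of 7.39 being at the filter level. Each of these 5 calls was lost when 1 of 4 to 22 arrays was left out, with adjusted p-values up to 0.169.

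Tofu against casein, T20 against C, had 3 higher and 0 lower of the 38, 7.89% beside 4.5% of all tested probe sets. *Tfpi* rose by 0.51 ± 0.14 (adjusted p = 0.0305), *Serpine2*, an inhibitor of thrombin and plasminogen activators, by 0.48 ± 0.14 (adjusted p = 0.0467) and *Colec11*, a collectin of the lectin branch, by 0.28 ± 0.07 (adjusted p = 0.0273). Each was lost without 1 of 5 to 14 arrays, with adjusted p-values up to 0.13. Median centring also ended the calls of *Colec11* (0.0752) and *Serpine2* (0.0746), and quantile normalization that of *Colec11* (0.153). With only the diets compared all 3 were lost (*Tfpi* 0.102, *Serpine2* 0.138 and *Colec11* 0.143). The same held without C replicate 3 and CI replicate 3 together (0.099, 0.0972 and 0.0811). T20 against CI had 2 higher, 5.26% of the 38 beside 2.12% of all tested probe sets. *Colec11* gave 0.39 ± 0.07 (adjusted p = 0.00378), a call which no single array ended. It was lost after quantile normalization (0.0517) and with only the diets compared (0.0727). *Serpine2* gave 0.52 ± 0.14 (adjusted p = 0.0471), a call lost without any 1 of 16 arrays. T10 against C, T20 against T10, CI against C and SI against S had 0 in limma.

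Of 27 listed regulators of these genes 24 were tested. In S against C 3 (12.5%) were lower, beside 4.27% of all tested probe sets, and in SI against CI 3 (12.5%), beside 6.14%. *Ghr* is among the 3 in each. In S against C *Hnf4a*, a hepatocyte transcription factor, fell by 0.53 ± 0.14 (adjusted p = 0.0203), *Onecut1*, another such factor, fell by 3.50 ± 0.89 (adjusted p = 0.0137) and *Ghr*, the growth hormone receptor, by 0.42 ± 0.11 (adjusted p = 0.0203). In SI against CI *Il1rap*, the accessory protein of the interleukin-1 receptor, fell by 0.83 ± 0.16 (adjusted p = 0.00129), *Ghr* by 0.45 ± 0.11 (adjusted p = 0.0103) and *Foxa1*, a further hepatocyte factor, by 0.39 ± 0.13 (adjusted p = 0.0428). *Il1rap* rose by 0.78 ± 0.16 in T20 against SI (adjusted p = 0.0077), and the tyrosine kinase gene *Jak1* fell by 0.29 ± 0.07 in T20 against C (adjusted p = 0.0193). The calls of *Hnf4a* and of *Ghr* in S against C were each lost without any 1 of 2 arrays, that of *Jak1* without any 1 of 3 and that of *Foxa1* without any 1 of 8, with adjusted p-values up to 0.122. *Jak1* and *Ghr* in S against C were also lost with an equal median and spread (0.53 and 0.226), as was *Hnf4a* (0.0751). With the mean of a gene's probe sets the calls of *Hnf4a* (0.0987) and *Ghr* (0.0691) in S against C and of *Il1rap* in T20 against SI (0.0554) were lost.

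Genes whose products join in 1 complex or are close relatives were compared within diets, after removing each diet's mean, over the 30 livers. Of 12 pairs 10 passed with a two-sided permutation p from 100000 permutations within diets, adjusted over the 12. The 528 pairs of all members had a median r of 0.22, with a 5th to 95th percentile of -0.33 to 0.69, so a positive r is common among them. All arrays share the normalization, and quantile normalization lowered that median to 0.04, while an equal median and spread raised it to 0.58.

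The fibrinogen chains varied together. *Fga* and *Fgg* had r = 0.938 and rho = 0.941 (permutation p = 1e-05, the smallest they can give), *Fga* and *Fgb* r = 0.763 and rho = 0.778 (adjusted p = 5.14e-05), and *Fgb* and *Fgg* r = 0.737 and rho = 0.776 (permutation p = 3e-05). Without the 2 livers farthest from the median on the first gene, r was 0.917, 0.722 and 0.811. In RefSeq *Fgg*, *Fga* and *Fgb* are neighbours, with 0 coding genes between them. After quantile normalization r was 0.832, 0.715 and 0.639.

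The C1q chains, also neighbours in the genome, had r = 0.896 for *C1qa* and *C1qb* (rho = 0.871), 0.900 for *C1qa* and *C1qc* (rho = 0.916) and 0.918 for *C1qb* and *C1qc* (rho = 0.879), each with a permutation p of 1e-05, the smallest they can give. Without the 2 farthest livers these were 0.868, 0.875 and 0.891. Livers high in 1 chain were thus high in the other chains of C1q.

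The C8 chains did not all vary together. *C8b* and *C8g* had r = 0.668 and rho = 0.789 (permutation p = 1e-05), and without the 2 farthest livers r was 0.675. *C8a* and *C8b*, although neighbours in the genome, had r = 0.425 and rho = 0.282 (permutation p = 0.0892, adjusted 0.0973), and *C8a* and *C8g* r = 0.0901 and rho = 0.0665 (adjusted permutation p = 0.623). Quantile normalization ended the call of *C8b* and *C8g* (r = 0.269, adjusted permutation p = 0.238), an equal median and spread brought *C8a* and *C8b* (0.722) and *C8a* and *C8g* (0.595) past the threshold, and leaving out SI replicate 2 brought *C8a* and *C8b* past it (r = 0.516, adjusted permutation p = 0.0416). How far these chains vary together thus depends on the scaling.

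**Figure D5:**
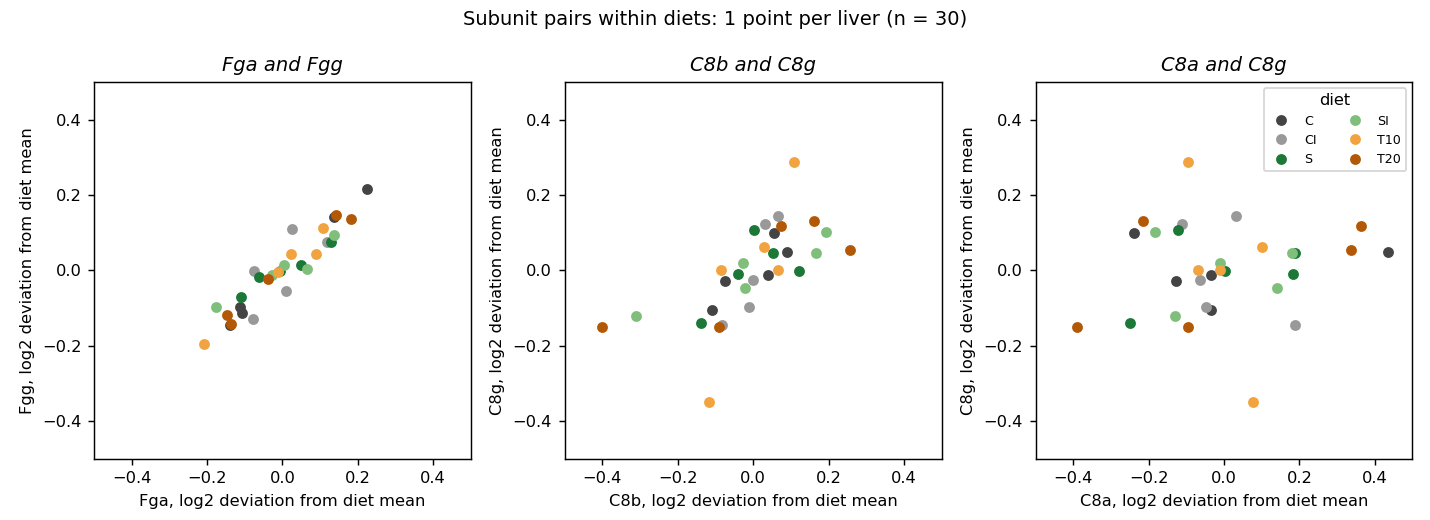
Deviation of each liver's log2 intensity from its diet mean for 1 gene (horizontal axes) against another (vertical axes), 1 point per liver coloured by diet (n = 30), on equal axes. *Fga* and *Fgg* lie along a line (r = 0.938), *C8b* and *C8g* scatter more widely (r = 0.668) and *C8a* and *C8g* show no line (r = 0.0901).

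The remaining pairs were weaker. *Masp1* and *Masp2* had r = 0.493 and rho = 0.492 (permutation p = 0.00668, adjusted 0.0100), and without the 2 farthest livers r was 0.444. *C4bpa* and *C4bpb* had r = 0.483 and rho = 0.580 (permutation p = 0.00761, adjusted 0.0101), and 0.569 without the 2. *Mbl1* and *Mbl2* had r = 0.413 and rho = 0.532 (permutation p = 0.0344, adjusted 0.0413), and 0.450 without the 2. After quantile normalization the last 2 pairs no longer passed (r = 0.316 and 0.182), and *Mbl1* and *Mbl2* did not pass without any 1 of 14 livers.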

How the data were processed

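Total RNA of 30 livers was hybridised to 1-colour Affymetrix arrays, 1 per rat. Per the labels, the authors scaled the arrays with SuperNORM, and the deposited values are linear intensities; folds are on that service's scale, whose reference level no label states. Here the floor was 16, values were taken to log2, and 57 controls of 31099 probe sets were left out. Probe sets with a mean log2 above the 40th percentile (7.39) were tested in limma 3.58.1 (R 4.3.3) with group means of all 30 arrays, a mean-variance trend, 24 residual degrees of freedom and two-sided tests, adjusted within each of 9 comparisons, 1 interaction and 1 F test at a threshold of 0.05. Labels call the rats of a diet biological replicates.

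Gene symbols came from the platform annotation; 20832 probe sets have 1 symbol, 436 several and 9831 none, and only the first were named. A gene is its brightest probe set. Members, lists and named genes were chosen with earlier results of these data known. Levels in every liver are given for members that passed a test and for 10 others chosen for their role, and the other pathway genes and regulators that passed are named. Methods were tested on simulated data. Correlations used scipy 1.17.1 and numpy 2.4.6 under Python 3.11.15, and figures matplotlib 3.10.9. Alternatives were 3 scalings, floors of 1 and 64, no or a 60th percentile filter, the mean of a gene's probe sets, no trend, the replicate number as a block, only the compared diets, array weights, each array left out, and C replicate 3 with CI replicate 3 or T10 replicates 3, 4 and 5 left out.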

Additional observations from a re-analysis of the deposited data

Results flagged for a closer look

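In 6 of 198 sets of 5 livers, a set being 1 member on 1 diet, a single liver stood apart from the other 4 by Dixon's test at the 95% critical value of 0.71; chance alone gives about 5% of sets. *F5*, the cofactor of activated factor X, was at 11.56 on the log2 scale in SI replicate 3, against 12.04 to 12.17 in the other SI livers. *Serpinc1*, antithrombin, was at 15.31 in S replicate 4, against 15.44 to 15.46. *C1qa* was at 12.35 in C replicate 5, against 12.56 to 12.60, and *C1qb* at 12.59 in T10 replicate 1, against 12.06 to 12.13. *C4bpb*, a chain of C4b-binding protein, was at 14.22 in S replicate 5, against 13.79 to 13.90. *Masp1*, a protease of the lectin branch, was at 12.11 in S replicate 3, against 11.41 to 11.56.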

How the results depend on the processing

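Directions of the members' pairwise calls held under every alternative tried, and the calls moved as follows. Quantile normalization gave 2 members for S against C and 10 for SI against CI. Median centring gave 8 for SI against CI, 1 for T20 against CI and 1 for T20 against SI. An equal median and spread gave 5 for T20 against C. Without a filter on dim probe sets T20 against SI had 1, and with the 60th percentile filter T20 against C and T20 against CI had 1 each. With only the diets compared, S against C had 2 and T20 against SI 0. With array weights T20 against C had 1, S against C 2 and T20 against SI 1. Floors of 1 and 64 and the means of probe sets moved none by more than 1.5 times. These counts stand without the shares of all tested probe sets under the same settings, so they are no result particular to the members.

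Leaving out each array gave 0 to 2 members for T20 against C, 1 to 2 for S against C, 4 to 7 for SI against CI, 0 to 2 for T20 against CI, 1 to 4 for T20 against SI and 5 to 9 for the F test, and 0 to 0 for T10 against C, T20 against T10, CI against C, SI against S and the interaction. Over all tested probe sets these ranges were 389 to 1029 for T20 against C and 900 to 1453 for S against C. They were 1358 to 2344 for SI against CI, 176 to 441 for T20 against CI and 228 to 1026 for T20 against SI. For the F test the range was 1999 to 2621, for T10 against C 27 to 70 and for the interaction 0 to 5. Pairs of genes that passed numbered 9 to 10 when arrays were left out, and 7 after quantile normalization.

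The labels number the rats 1 to 5 on every diet, but nothing says that a number is shared. The 75 same-numbered pairs of arrays had deviations from diet means that correlated at -0.277 to 0.350 (median 0.0459, 22 above 0.1). The 300 other pairs between diets had a median of -0.0130, and 8 of 30 arrays were best matched to their own number. Correlations this weak do not settle whether the numbers pair the rats. The replicate block gave 1 member for T20 against C (*Mbl2*), 2 for S against C (*Proc* and *C8b*), 3 for T20 against CI (*C1qa*, *C1qb* and *C1qc*), 7 for SI against CI, 3 for T20 against SI and 11 for the F test. The shares of all tested probe sets under this block are not given beside these counts.

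Under each scaling the median difference of all probe sets lay within 0.1 of 0, except the interaction under median centring (0.108). Median centring moved it from -0.02 to 0.09 in SI against CI, and the counts there are relative to that shift. All 33 members passed the filter on dim probe sets.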
